A study of Bos taurus with 2 samples.

Results

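Fc receptors are the proteins through which cells bind the constant part of antibodies. The genes described here are FCGR2B, 8 further Fc receptor genes (FCGR1A, FCGR2A, FCGR3A, FCER1A, FCER1G, FCER2, FCGRT and FCAR) and JCHAIN, which is no receptor but joins the antibody units that the IgA and IgM receptors bind. These 10 genes were chosen by name, with the difference in FCGR2B between the samples already known. A probe was counted where its accession matched one of these symbols in RefSeq (assembly ARS-UCD2.0). This gave 17 of the 43803 noncontrol spots of the array, each a probe spotted once, for 9 of the 10 genes. No probe was matched to FCER2, the low-affinity IgE receptor, and it was not analysed here.

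The samples were muzzle tissue from 2 female HanWoo cows of 30 months, 1 with a light muzzle (tissue color Yellow) and 1 with a dark muzzle (tissue color Black). Each was the single representative animal of its muzzle color, no treatment is named, both were raised on the same farm, and the front part of the muzzle was removed and frozen. The RNA of each cow was read alone on a 1-colour Agilent bovine array, and both arrays lay on 1 slide. With 1 array per group there was no replicate, so each value is a difference between 2 animals, no test was made, and muzzle color, animal and piece of tissue cannot be told apart. The values are processed signals, which are spot brightnesses after background subtraction, and log2 levels, which are the log2 of that signal over the 75th percentile of the array (1144 in the light-muzzle and 1137 in the dark-muzzle cow). Log2 ratios were taken as dark over light, so that negative values mean a lower level in the dark muzzle.

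IgG binds the Fc gamma receptors of macrophages, neutrophils, B cells and NK cells. Most of them activate the cell. Several pair with the gamma chain encoded by FCER1G, whose tyrosine motif is phosphorylated by LYN and then recruits the kinase SYK. FCGR2B is the inhibitory member. It carries an inhibitory motif in its own tail, which recruits the lipid phosphatase SHIP1 (INPP5D), and it restrains B cells, mast cells and macrophages that have bound immune complexes.

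Of these 17 probes, 13 were well above background on both arrays, 1 was so only in the light-muzzle cow, and 2 were so in neither. The last was marked as an outlier spot by the scanner software and left out. Among the 14 probes with a ratio, 4 were lower by 2-fold or more in the dark muzzle, 2 of them for FCGR2B and 2 for JCHAIN, and 0 were at least 2-fold higher. Of all 36630 probes with a ratio, 7.17% were at least 2-fold lower and 9.76% at least 2-fold higher. FCGR2B was chosen for this contrast, so its count is a description only. The median log2 ratio of the 7 genes with a ratio was -0.12, beside 0.065 for all 8914 named genes with one.

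**Figure D1:**
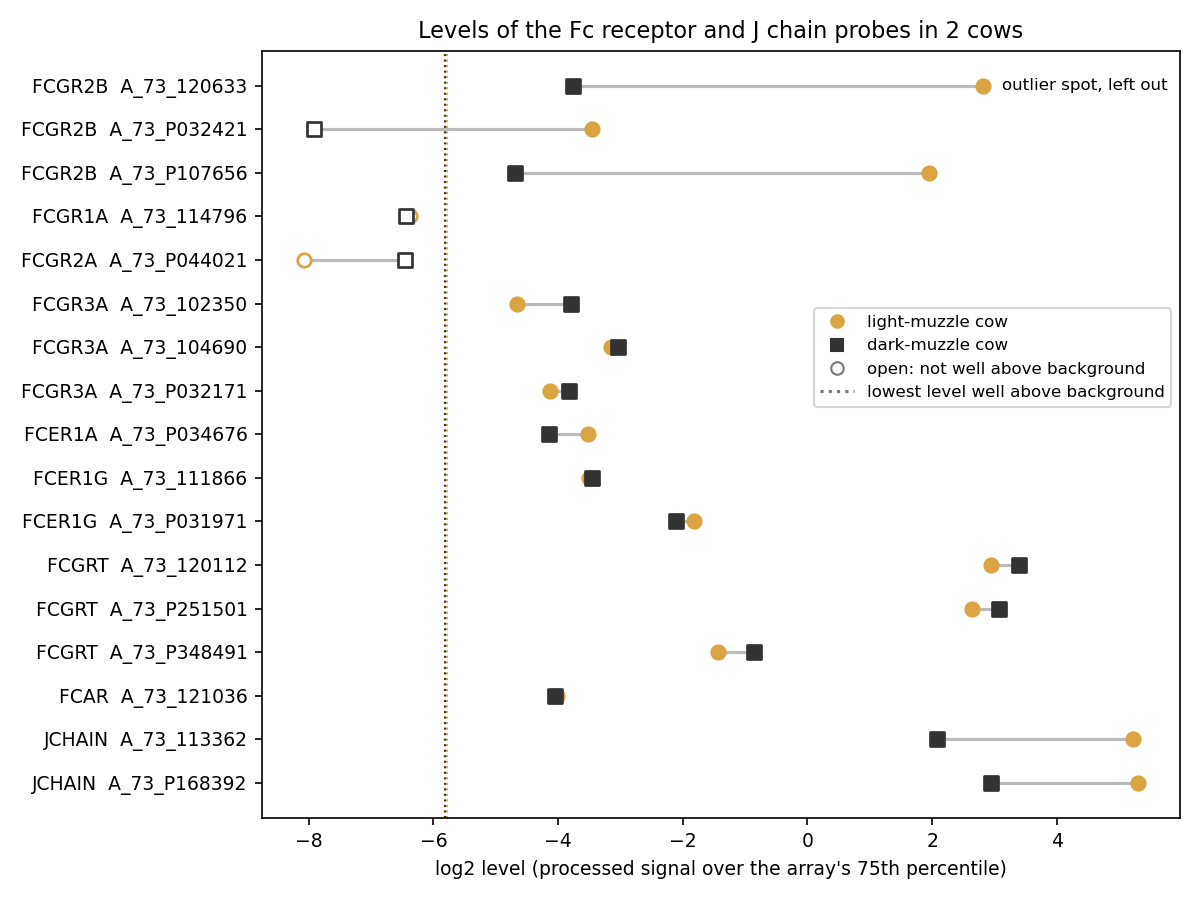
Each row is 1 probe of an Fc receptor gene or JCHAIN, and the horizontal axis is its log2 level, with a circle for the light-muzzle cow and a square for the dark-muzzle cow; open symbols were not well above background and the dotted lines mark the lowest level that was. The symbols stand far apart only for FCGR2B and JCHAIN among probes above background in either cow, and the FCGR1A and FCGR2A probes are open in both.

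FCGR2B had the lowest log2 ratio of the 8508 named genes measured on both arrays. That rank rests on 1 probe and was not kept under all alternatives tried. Probe A_73_P107656 had a signal of 4419 in the light muzzle, against 43.9 in the dark muzzle, with spot errors of 442 and 6.70 given by the scanner software. Its log2 level went from 1.95 to -4.69, a difference of -6.64 with a spot error of 0.26, which is 100.03-fold less in the dark muzzle. That error covers the reading of the spot and not the spread between animals. The dark-muzzle level stayed above the detection limit of that array, taken as the lowest level marked well above background (-5.81).

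Both other probes of the same FCGR2B accession, NM_174539, pointed the same way. Probe A_73_P032421 had a signal of 104 in the light-muzzle cow and one of 4.72, which did not pass background, in the dark muzzle. It was at least 5.08-fold lower there, with the light-muzzle level set against the detection limit of the dark-muzzle array. Probe A_73_120633 had the brightest signal, 8050 against 83.9, a log2 ratio of -6.58 or 95.3-fold. Its spot on the light-muzzle array was marked as not uniform, so it enters no count or mean here. In bulk tissue, fewer cells that make FCGR2B and less FCGR2B RNA per cell cannot be told apart. The probes' sequences were not used here, so a difference in the FCGR2B sequence between the cows was not tested.

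Spots beside the member probes did not share these differences. The median log2 ratio of the spots within 4 rows and 2 columns that were above background on both arrays was 0.13 over 28 spots for A_73_P107656, and between -0.17 and 0.27 for all 17 probes. The 3 named genes outside the list with the nearest mean log2 ratio to FCGR2B, over the 2 samples, were MSMB (-6.18), SLC4A10 (-5.20) and PIP (-4.89). With dim probes unfiltered, SLC4A10 was at -1.05.

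Of the other IgG receptors of leukocytes, only FCGR3A gave a ratio, and it was on the higher side in the dark muzzle. FCGR3A (CD16), the activating receptor of NK cells and some macrophages, had 3 probes, all well above background on both arrays. Their signals were 45.1, 129 and 65.7 in the light muzzle, against 82.4, 139 and 80.2 in the dark muzzle. Each was higher in the dark muzzle, by log2 ratios of 0.88, 0.12 and 0.30, none reaching 2-fold, and the probes differed among themselves by more than most of these ratios. The mean was 0.43.

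FCGR1A (CD64), the high-affinity IgG receptor of macrophages, had 1 probe with signals of 13.8 and 13.1, not well above background in either cow. FCGR2A, a further low-affinity IgG receptor, had 1 probe with signals of 4.23 in the light-muzzle and 12.9 in the dark-muzzle cow, again not well above background. No ratio can be given for these genes, and their absence from the tissue is not shown by it.

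FCER1G, the signalling gamma chain shared by several activating receptors, had signals of 101 and 325 in the light muzzle, against 104 and 263 in the dark muzzle. Its log2 ratios were 0.056 and -0.30, with spot errors of 0.22 and 0.21. Their mean of -0.12 was smaller than the typical SD between probes of the same accession, 0.18 over 7661 accessions.

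The other gene of an IgE receptor measured, FCER1A, encodes the chain by which mast cells and basophils bind IgE. Its probe had a signal of 99.9 in the light muzzle, against 64.0 in the dark muzzle. The log2 ratio was -0.63 with a spot error of 0.26, and -0.21 under a different background correction (normexp). FCAR, the IgA receptor of myeloid cells, had signals of 70.9 and 68.6 and a log2 ratio of -0.039, within its spot error of 0.25.

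FCGRT encodes the neonatal Fc receptor, which carries IgG across epithelia and protects it from breakdown in endothelium and macrophages. Its signals were 8817, 7141 and 423 in the light muzzle, against 11913, 9605 and 630 in the dark muzzle. All 3 probes were higher in the dark-muzzle cow, by log2 ratios of 0.44, 0.44 and 0.58, below 2-fold. B2M, the beta-2-microglobulin chain with which FCGRT and the MHC class I proteins pair, had 4 probes with log2 ratios from 0.37 to 0.54 and a mean of 0.48. The mean of FCGRT was 0.49, and 77.8% of named genes measured on both arrays had a lower one. Under a different normalization (quantile) FCGRT was at 0.42 and B2M at 0.28.

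In the order of the mean log2 ratios, from FCGR2B over JCHAIN, FCER1A, FCER1G, FCAR and FCGR3A to FCGRT, FCER1G and FCAR were less than 0.18 apart, as were FCGR3A and FCGRT. The probes of FCGR3A and of FCER1G spread more widely than that, so the order within those pairs is not resolved.

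**Figure D2:**
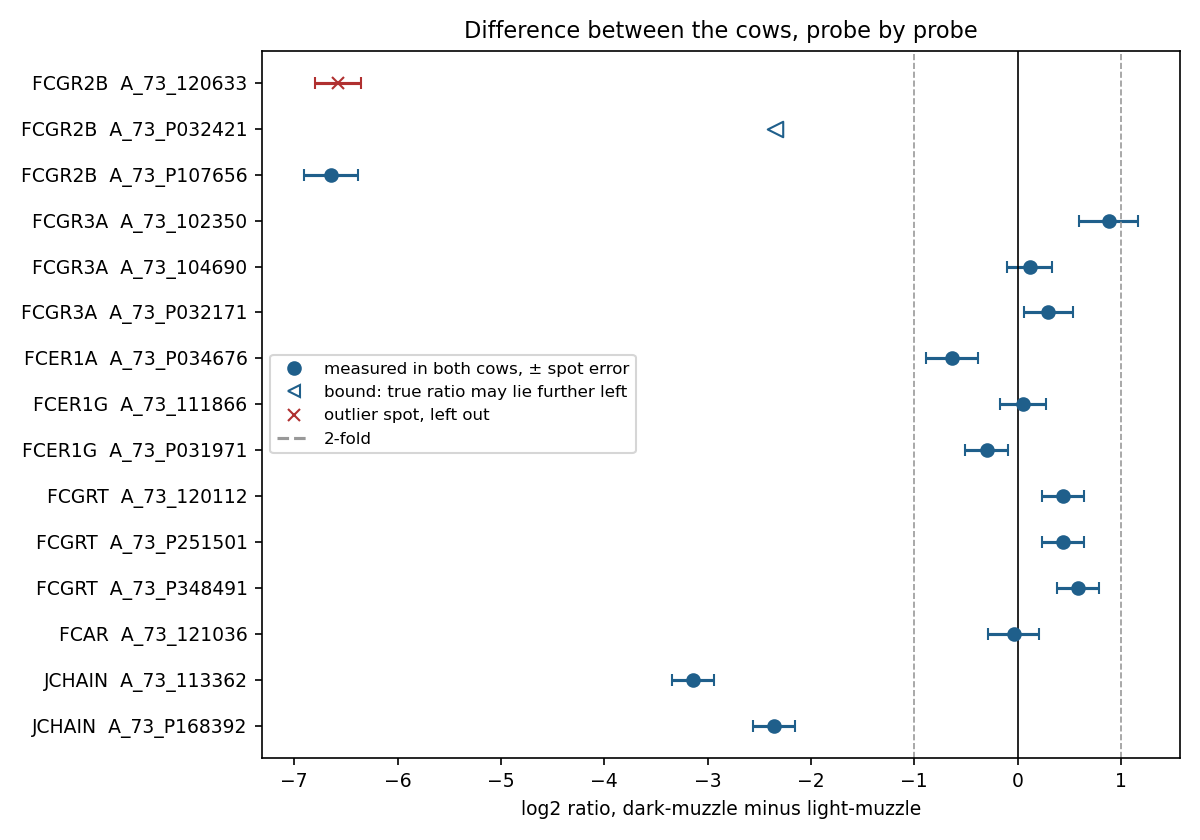
The horizontal axis is the log2 ratio of each probe with a value, dark-muzzle minus light-muzzle, and bars are the spot error from the scanner software, which leaves out the spread between animals. FCGR2B and JCHAIN lie left of the 2-fold line, the triangle being a bound and the cross the outlier spot at -6.58, whereas the other probes lie between -0.63 and 0.88.

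JCHAIN, which plasma cells make to join IgA dimers and IgM pentamers, was the second gene of the list past 2-fold. Its probes had signals of 42795 and 45167 in the light muzzle, against 4814 and 8751 in the dark muzzle. They were 8.84-fold and 5.13-fold lower in the dark muzzle, with log2 ratios of -3.14 and -2.36 and spot errors of 0.20 each. The probes agreed in direction, although the gap between their ratios was wider than those errors. The mean was -2.75, and 0.635% of named genes measured on both arrays had a lower one.

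PIGR encodes the polymeric immunoglobulin receptor, which binds J chain-joined IgA and IgM and carries them across gland epithelium. It was 1 of 16 other Fc-binding genes looked for, of which 4 were matched to a probe. Its signals were 73507, 66582 and 6157 in the light muzzle, against 7781, 7343 and 552 in the dark muzzle. All 3 probes were lower in the dark-muzzle cow, with log2 ratios from -3.47 to -3.17 and a mean of -3.29. The other 3 genes were B2M, TRIM21, the cytosolic antibody receptor (0.010, from probes at -0.060 and 0.081), and LGALS3, a lectin that binds IgE (-0.069).

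Markers of plasma cells and of glands went both ways. Of 9 plasma cell genes listed, 6 had a ratio, 3 were at least 2-fold lower and 0 higher, with a median of -1.02. Over all named genes with a ratio, 6.47% were at least 2-fold lower and 9.86% at least 2-fold higher. These shares stand beside the count of every gene list here and below, and the lists are short. POU2AF1, a coactivator of antibody gene transcription, had the lowest ratio of them (-3.48, and -2.31 under normexp), followed by XBP1 (-1.54), a transcription factor of secretory cells in general, and MZB1 (-1.31), an endoplasmic reticulum protein of B and plasma cells. DERL3 (-0.73) was lower by less than 2-fold. CD38 (0.46) and SDC1 (0.33), a surface protein also made by keratinocytes, were higher by less than 2-fold. CD38 was dim, with signals of 30.9 in the light-muzzle and 42.2 in the dark-muzzle cow, and its other probes passed background in neither. The summed signal of the 9 probes of this list above background in both cows, most of it from XBP1, was 93736 in the light-muzzle and 38593 in the dark-muzzle cow. Of 6 serous gland genes, PIP, PIGR and CA6 were at least 2-fold lower. BPIFA1 (1.29) was at least 2-fold higher, but from dim signals of 31.7 in the light-muzzle and 76.8 in the dark-muzzle cow. LPO (0.57) and LYZ (0.40, from probes at 0.032 and 0.78) were higher by less than 2-fold. The summed gland signal, most of it from PIP and PIGR, was 396145 in the light-muzzle and 42742 in the dark-muzzle cow. The part of plasma cell or gland content in the JCHAIN, PIGR and FCGR2B differences was not tested.

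Macrophages and B cells also carry FCGR2B. Of 12 macrophage and monocyte genes, 9 had a ratio, 1 was at least 2-fold lower and 0 higher. Their median was -0.25. CD68, CD14, CD163, CSF1R, AIF1 and MSR1 lay between -0.33 and -0.055, whereas CX3CR1, a chemokine receptor, was lower (-1.82, from probes at -2.55 and -1.10). The probes of CD68 went both ways, at -0.48 and 0.37. Another probe of MSR1 passed background in the light muzzle alone, with a log2 ratio of -0.73 or lower. C1QA (0.38) and C1QB (0.080) were above 0. The summed macrophage signal was 8322 in the light-muzzle and 7897 in the dark-muzzle cow. Of 10 B cell genes only BLK (-0.35), CD79A (-0.39) and MS4A1 (0.17) had a ratio from probes measured in both cows, and their summed signal was 2774 and 2121. A second probe of CD79A passed background on the dark-muzzle array alone and gave the opposite direction, a log2 ratio of at least 1.43. The part of macrophage or B cell content in the FCGR2B difference was not tested. The summed signal of the 13 probes of the Fc receptor and J chain genes, most of it from JCHAIN and FCGRT, was 109598 and 36558.

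The genes that carry the signal of Fc receptors were mostly within 2-fold. Of 45 listed, 33 had a ratio, of which 3 were at least 2-fold lower and 0 higher, beside 6.47% and 9.86% of all named genes. The median was -0.12, with 23 genes below 0 and 10 above. LYN, the Src-family kinase that phosphorylates both the activating motifs and the inhibitory motif of FCGR2B, had 3 probes with log2 ratios from -1.22 to -1.13. Their signals were 3088, 3235 and 108 in the light muzzle, against 1314, 1391 and 48.8 in the dark muzzle.

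BTK, a B cell and myeloid kinase that FCGR2B signalling restrains, had a log2 ratio of -1.17, and NCF4, a subunit of the phagocyte NADPH oxidase, one of -1.14. Under normexp background correction LYN (-0.97), BTK (-0.80) and NCF4 (-0.78) were each within 2-fold. CYBB, the catalytic subunit of the same oxidase, was at -0.91. SYK was at -0.56. INPP5D, the phosphatase recruited by FCGR2B, was at -0.27 from the 1 of its probes above background, and PTPN6, a further phosphatase of inhibitory receptors, at -0.065. The highest ratio of the list was that of CD3G (0.67), a T cell receptor chain. TYROBP, an adaptor like the gamma chain, was at 0.51.

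Other receptors with inhibitory or paired activating functions went both ways. Of 15 listed, 6 had a ratio, 2 as bounds. TREM2, an activating receptor of macrophages, was lower in the dark-muzzle cow (-1.25), as was CEACAM1, an inhibitory adhesion receptor of epithelial and immune cells (-1.24, but -0.78 under normexp). PECAM1, an inhibitory-motif adhesion protein of endothelium and leukocytes, was higher (1.14, from probes at 1.08 and 1.21).

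**Figure D3:**
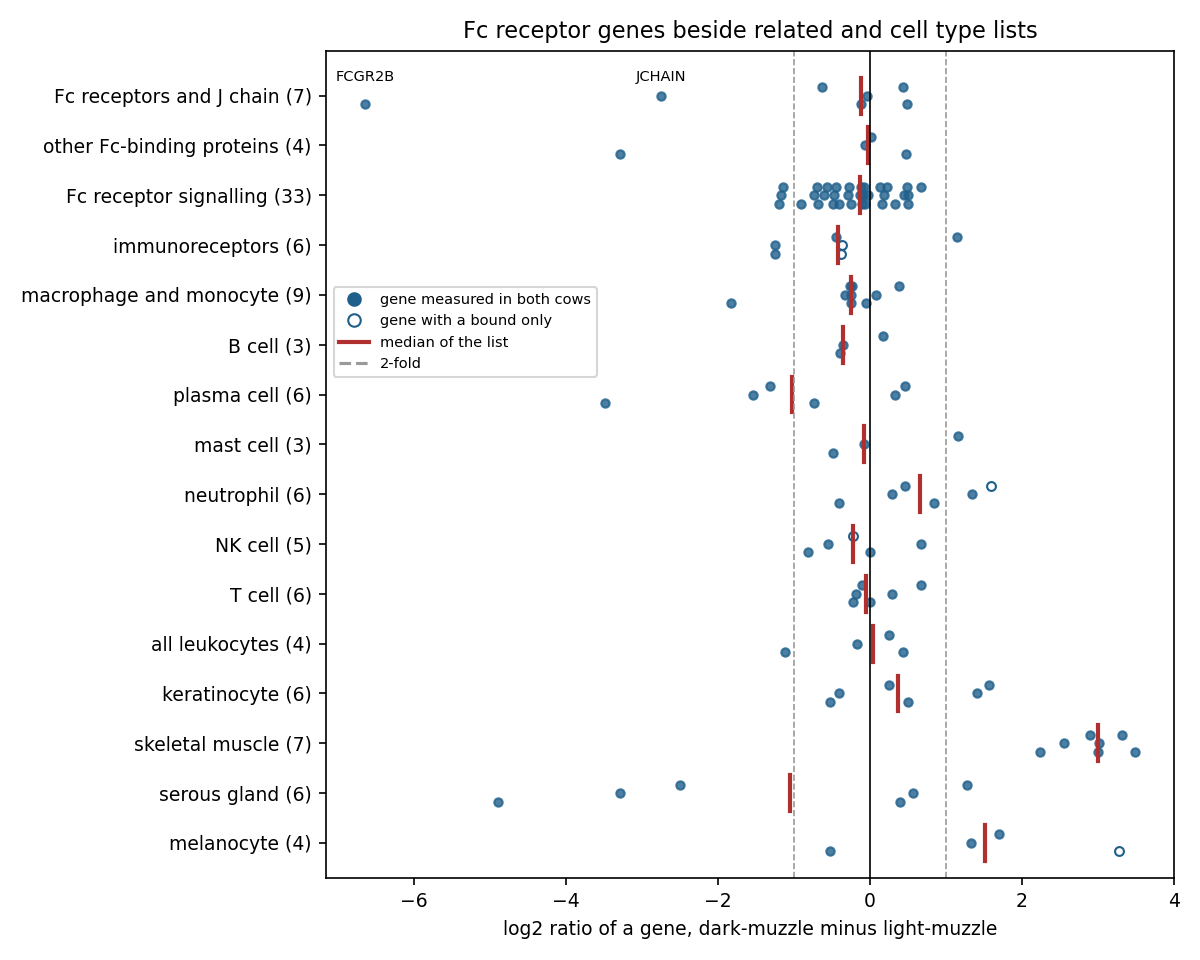
Each dot is the mean log2 ratio of 1 gene, dark-muzzle minus light-muzzle, in rows by gene list with the number of genes with a ratio in parentheses; red bars are list medians and open dots bounds. FCGR2B (-6.64) stands left of all genes on these lists, PIP (-4.89) being next, and PIGR is drawn in both the Fc-binding and the gland row.

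FCGR2B lies in a cluster of Fc receptor genes. In the gene order of ARS-UCD2.0, FCGR3A is the next protein-coding gene, FCGR2A the third and FCER1G number 11 on the same side. Of the 20 protein-coding genes on each side, a window chosen after the values were seen, 24 with a ratio are reported, with a median of 0.23. B4GALT3, a galactosyltransferase, was at least 2-fold lower (-1.51). RGS5, a signalling regulator of pericytes (1.74), was at least 2-fold higher. The nearest gene with a ratio was FCGR3A on that side, but only OLFML2B, number 6, on the other, since the genes between were matched to no probe. The difference in FCGR2B was not shared by the reported genes of the window. The builds of array and table differ, so no coordinates are given.

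**Figure D4:**
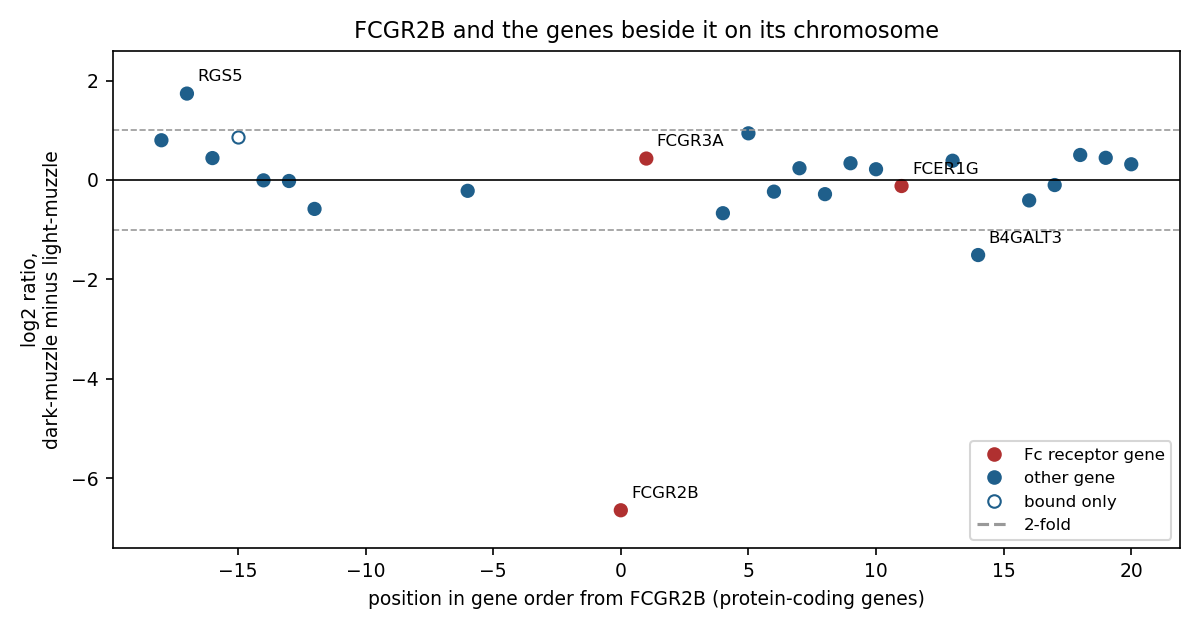
The vertical axis is the mean log2 ratio of a gene, dark-muzzle minus light-muzzle, and the horizontal axis its place in gene order counted from FCGR2B, with Fc receptor genes in red. FCGR2B lies at -6.64, whereas the other genes shown lie between -1.51 (B4GALT3) and 1.74 (RGS5).

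The arrays as a whole were alike in brightness, with 78.8% of noncontrol spots well above background in the light-muzzle and 81.9% in the dark-muzzle cow. The 8 spike-in control transcripts above background on every spot had median log2 ratios between -0.37 and 0.012. Of 8 keratinocyte genes listed, 6 were measured in both cows, 4 with ratios above 0 and 2 below. KRT10 (1.57) and LORICRIN (1.41), of the upper epidermis, were higher by 2-fold or more, DSC1 was at 0.50 and DSG1 at 0.25, and the keratins of the basal layer, KRT5 (-0.52) and KRT14 (-0.41), were below 0. All 7 skeletal muscle genes listed were higher by 2-fold or more in the dark muzzle, with a median of 3.01 and a summed signal of 675501 against 3809710. Of 6 melanocyte genes 4 had a ratio, 3 of them at least 2-fold higher, PMEL (1.70), TYR (1.34) and TYRP1. TYRP1 passed background in the dark muzzle alone (at least 9.72-fold). DCT was at -0.52 from its probe measured in both cows, but its other probe, above background in the dark muzzle alone, was at 0.54 or higher. The part of this difference in tissue makeup in the Fc receptor values was not tested.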

How the data were processed

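Total RNA of 1 muzzle sample per cow was labelled with Cy3 and hybridised by the authors to an Agilent bovine 4x44K array. For each array the authors deposited a Feature Extraction 10.7.3.1 file, whose processed signal is a spot intensity with the background subtracted and spatial trends removed. They also deposited a table of log2 values made in GeneSpring, used here only as an alternative. Samples were grouped by the tissue color in their labels.

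Intensities were divided by the 75th percentile over the noncontrol spots of the same array and log2-transformed. Spots marked as nonuniform or population outliers, 13 on each array, were dropped and repeated spots averaged, which left 43639 probes, of which 20587 had a symbol. A probe well above background on 1 array gave a lower bound, the bright level minus the higher of the dim level and the lowest level well above background. A gene's ratio is the mean over its probes measured on both arrays, or else its largest bound. Over 43 probes spotted 4 times, ratios of repeated spots had a median SD of 0.049 on the log2 scale. The error of a spot is the one given by Feature Extraction.

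The member genes, gene lists and comparisons were chosen with earlier results of these data known. Named were all members, the other Fc-binding genes, the signalling genes and immunoreceptors past 2-fold or else the highest and lowest, and the 3 genes nearest FCGR2B in ratio. Further genes of the signalling and cell type lists were named, after their values were seen, for their known roles. No test or p-value was computed, and precision is limited by the number of arrays. Alternatives were quantile normalization, no shift, the 50th percentile in place of the 75th, normexp (offset 50, on the median pixel signal), outlier spots kept, dim probes not filtered, only probes measured on both arrays, the deposited log2 table, the brightest probe of a gene, and thresholds of 1.5-fold and 3-fold. Python 3.11.15, numpy 2.4.6, pandas 2.3.3, R 4.3.3 and limma 3.58.1 were used. In the gene order around FCGR2B, 1 gene is not reported here. The counting of genes past 2-fold was tested on simulated data.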

Additional observations from a re-analysis of the deposited data

How the results depend on the processing

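FCGR2B kept its direction and stayed past 2-fold under all alternatives tried. Its log2 ratio was -5.55 with dim probes unfiltered, which brings its dim probe into the mean. It was -5.24 (37.7-fold) under normexp background correction and lay between -6.77 and -6.61 under the others. Normexp as used adds an offset of 50 to every signal, which shrinks the ratios of dim probes most. With dim probes unfiltered (-6.18) and under normexp (-6.02), MSMB was lower than FCGR2B, which then no longer had the lowest ratio. Probes of the Fc receptor genes and JCHAIN at least 2-fold lower numbered between 3 and 5 under the alternatives that kept this threshold. Without the filter on dim probes 1 was at least 2-fold higher, that of FCGR2A. With the threshold at 1.5-fold instead, 5 were lower and 1 higher, the latter of FCGR3A. JCHAIN lay between -2.90 and -2.36 and PIGR between -3.39 and -3.22. TRIM21 changed sign under quantile normalization, the 50th percentile shift and its brightest probe. CEACAM1 was also within 2-fold by its brightest probe (-0.96), and without the filter CD3G reached 1.22 and SLC4A10 was at -1.05. Over all probes, the share of higher among those past 2-fold was 57.7% as reported and 49.7% under quantile normalization, and normexp lowered the count of lower probes from 2626 to 1563 and that of higher ones from 3575 to 2132. With dim probes unfiltered, 6018 were higher. No paired analysis was possible because each group held 1 array.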

Other observations

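Of the leukocyte lists not described above, neutrophil genes had the highest median. Of 9 listed, 6 had a ratio and 2 were higher by 2-fold or more in the dark muzzle, S100A9 (1.34), a calcium-binding protein that keratinocytes also make, and MPO, the myeloperoxidase of neutrophil granules, which passed background in the dark muzzle alone (at least 3.03-fold). S100A8 (0.84), CXCR2 (0.47) and S100A12 (0.29) were higher by less than 2-fold, and ELANE was below 0 (-0.40). The median log2 ratio of the neutrophil genes was 0.66. T cell genes had a median of -0.047 and NK cell genes one of -0.22, with 0 genes of either list past 2-fold. Of the 3 mast cell genes with a ratio, KIT was at -0.072 and HDC, the enzyme that makes histamine, at -0.48, while TPSB2, a tryptase, was higher (1.16, from probes at 1.58 and 0.73). The genes expressed by all leukocytes had a median of 0.043, with LCP1, an actin-bundling protein, lower (-1.11).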
